A study of Mus musculus with 5 samples.

Results

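Haemoglobin genes and a pair of red-cell genes were followed through 5 RNA-seq libraries of sorted fetal muscle cells of the mouse. The 9 genes were the alpha-type globins Hba-a1, Hba-a2 and Hba-x, the beta-type globins Hbb-b1, Hbb-b2, Hbb-y and Hbb-bh1, and the erythroid genes Alas2 and Slc4a1. The deposited table listed 8 of them among 25873 named genes, and Hbb-b2 was not analysed here. The genes were chosen with RPKM values of these same libraries, and the Notch2 comparison of them, already known, so those levels and differences are given as a description.

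Haemoglobin is a tetramer of paired alpha-type and beta-type globin chains, each holding a haem group. In the mouse, the primitive red cells that arise in the yolk sac make embryonic chains, zeta from Hba-x, epsilon-y from Hbb-y and beta-h1 from Hbb-bh1, while the definitive red cells of the fetal liver and later the bone marrow make adult chains from Hba-a1, Hba-a2 and the adult beta genes. Alas2 encodes the erythroid form of the enzyme of the first step of haem synthesis, and Slc4a1 encodes band 3, the anion exchanger of the red-cell membrane. Red cells are not part of the muscle lineage.

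The cells came from limb muscle of E16.5 fetuses of the C57BL/6J strain and were sorted as tdTomato-positive and lineage-negative. The stains sharing 1 colour were CD31 (endothelial), CD45 (leukocyte) and Ter119 (erythroid), so lineage-negative is taken to mean unstained by these 3. A total of 2 libraries are labelled Notch2 cKO (genotype Pax7-CreER; Notch2 f/f; Rosa-tdTomato), 1 is labelled Notch1 cKO (Pax7-CreER; Notch1 f/f; Rosa-tdTomato) and 2 are WT (Pax7-CreER; Rosa-tdTomato). All groups carry Pax7-CreER, a tamoxifen-activated Cre of muscle progenitors, together with the Rosa-tdTomato reporter, and in all of them the mothers received tamoxifen by mouth at 240 mg/kg for 2 days from E12.5. The deletion is therefore limited to cells in which Pax7-CreER was active. Nothing in the labels ties the libraries of a group to separate fetuses or separate litters, and the spread between them may be technical. Libraries are called here by their group and the tag of their column, Em2, Em3, Em4 or Em8.

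The Notch2 cKO-labelled pair held 20740000 reads (Em3) and 28830000 reads (Em4), Notch1 cKO Em8 held 25550000, and WT held 24420000 (Em2) and 22860000 (Em4). The targeted genes were read first. Notch1 stood at 2.33 RPKM (reads divided by gene length and by the library total) in Notch1 cKO Em8, against 7.26 and 13.5 RPKM in WT. Notch2 stood at 3.35 and 2.03 RPKM in the Notch2 cKO-labelled pair, against 2.40 and 4.17 RPKM in WT, so it did not separate these groups, and a value for a whole gene need not show the loss of a part of it. For this reason these libraries are called the Notch2 cKO-labelled pair throughout. Muscle genes were present in every library: all 13 genes of the myogenic list were tested, and the highest, Myog, which drives the commitment of myoblasts, was at 1655 and 1737 RPKM in the Notch2 cKO-labelled pair, 944 RPKM in Notch1 cKO Em8, and 1053 and 1272 RPKM in WT.

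The globin genes differ greatly in how well reads can separate them, and the sequences show why each value must be read with its neighbours. The coding sequences of Hba-a1 (chr11:32283511-32284465, + strand) and Hba-a2 (chr11:32296489-32297298, + strand; both GRCm38, GENCODE M21) are 429 bases long and differ at 1 base, C381T from Hba-a1 to Hba-a2, counted from the first base of the start codon. The 41 bases around it are printed with that base in capitals.
Hba-a2: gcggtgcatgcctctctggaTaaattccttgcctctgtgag
Hba-a1: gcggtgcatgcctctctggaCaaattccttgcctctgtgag
Of 650 windows of 50 bases in the GENCODE transcript of Hba-a1, 439 (67.5%) also occurred in that of Hba-a2. The Hba-a1 counted in the deposited values was shorter, at 559 bases, so the share for its reads may differ. Reads of this pair could thus be divided between the copies by the authors' counting, and their separate levels are uncertain. The adult beta genes of the reference strain form a like pair, Hbb-bs (chr7:103826534-103828096, − strand) and Hbb-bt (chr7:103812524-103813996, − strand), whose 444 coding bases differ by C417T.
Hbb-bt: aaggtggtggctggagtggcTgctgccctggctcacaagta
Hbb-bs: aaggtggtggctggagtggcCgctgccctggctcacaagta
The table lists Hbb-b1 and Hbb-bs, while Hbb-b2 and Hbb-bt are not analysed here. In RefSeq's GRCm38.p6, Hbb-b1 and Hbb-b2 sit on an alternate scaffold and not on chromosome 7, so no sequence of Hbb-b1 is printed. Which adult beta gene was counted under the name Hbb-b1 is therefore not known, and that name is kept here only as listed. The division of reads between Hbb-b1 and Hbb-bs is also uncertain.

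The embryonic genes stand apart in sequence. The first 90 coding bases of Hba-x (chr11:32276400-32278116, + strand) and Hba-a1 are shown because 44 of them differ, and the capitals mark those bases.
Hba-x: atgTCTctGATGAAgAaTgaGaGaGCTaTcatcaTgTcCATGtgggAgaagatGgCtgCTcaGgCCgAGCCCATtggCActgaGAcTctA
Hba-a1: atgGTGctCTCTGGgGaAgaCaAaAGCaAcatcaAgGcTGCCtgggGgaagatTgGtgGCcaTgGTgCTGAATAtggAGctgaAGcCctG
For Hbb-y (chr7:103851749-103853216, − strand) and Hbb-bs, 26 of the first 90 bases differ.
Hbb-y: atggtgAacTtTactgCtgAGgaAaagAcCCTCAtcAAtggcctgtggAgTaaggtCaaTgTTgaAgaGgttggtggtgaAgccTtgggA
Hbb-bs: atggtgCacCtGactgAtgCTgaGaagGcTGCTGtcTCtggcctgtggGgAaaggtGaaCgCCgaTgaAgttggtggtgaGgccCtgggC
Over the whole coding sequence, Hba-a1 and Hba-x were 62.0% identical and Hbb-bs and Hbb-y were 74.3% identical, with 0 shared windows of 50 bases in either pair. The few embryonic reads can thus be told from adult ones by sequence, unlike reads of the adult copies.

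The adult alpha-globin gene Hba-a2 was the highest member in every library. It stood at 193 and 165 RPKM in the Notch2 cKO-labelled pair Em3 and Em4, 676 RPKM in Notch1 cKO Em8, and 431 and 478 RPKM in WT (Em2, then Em4). Behind these values were 2257 and 2683 reads in the Notch2 cKO-labelled pair, 9725 reads in Notch1 cKO Em8, and 5921 and 6155 reads in WT. The groups did not overlap: the lone Notch1 cKO library was above both WT libraries, and both libraries labelled Notch2 cKO were below them. Over all genes tested, 24.3% met the Notch1 side of this order, 9.44% the Notch2 side and 2.35% both. Among all named genes Hba-a2 ranked 614th and 726th in the Notch2 cKO-labelled pair, 174th in Notch1 cKO Em8, and 338th and 225th in WT. Its near-identical copy Hba-a1 stood at 101 and 89.0 RPKM in the Notch2 cKO-labelled pair, 347 RPKM in Notch1 cKO Em8, and 179.7 and 252 RPKM in WT. The libraries lay in the same order for both copies.

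The adult beta-globin gene Hbb-b1 stood at 154 and 137 RPKM in the Notch2 cKO-labelled pair, 499 RPKM in Notch1 cKO Em8, and 266 and 373 RPKM in WT Em2 and Em4. Again the groups did not overlap and the lone Notch1 cKO library was the highest, the order that 2.35% of all genes tested met. The other adult beta gene of the table, Hbb-bs, which was not among the 9 genes, stood at 70.0 and 56.3 RPKM in the Notch2 cKO-labelled pair, 224 RPKM in Notch1 cKO Em8, and 101 and 112 RPKM in WT. The WT libraries differed by 1.4-fold for both Hba-a1 and Hbb-b1 and by 1.11-fold for Hba-a2, while the Notch2 cKO-labelled pair differed by 1.14-fold, 1.13-fold and 1.17-fold for the same genes. Summed over Hba-a1, Hba-a2 and Hbb-b1, adult globins made up 0.0722% and 0.0639% of all RPKM in the Notch2 cKO-labelled pair, 0.217% in Notch1 cKO Em8, and 0.114% and 0.174% in WT. In bulk samples such as these, fewer cells of a type and less RNA per cell cannot be told apart.

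**Figure D1:**
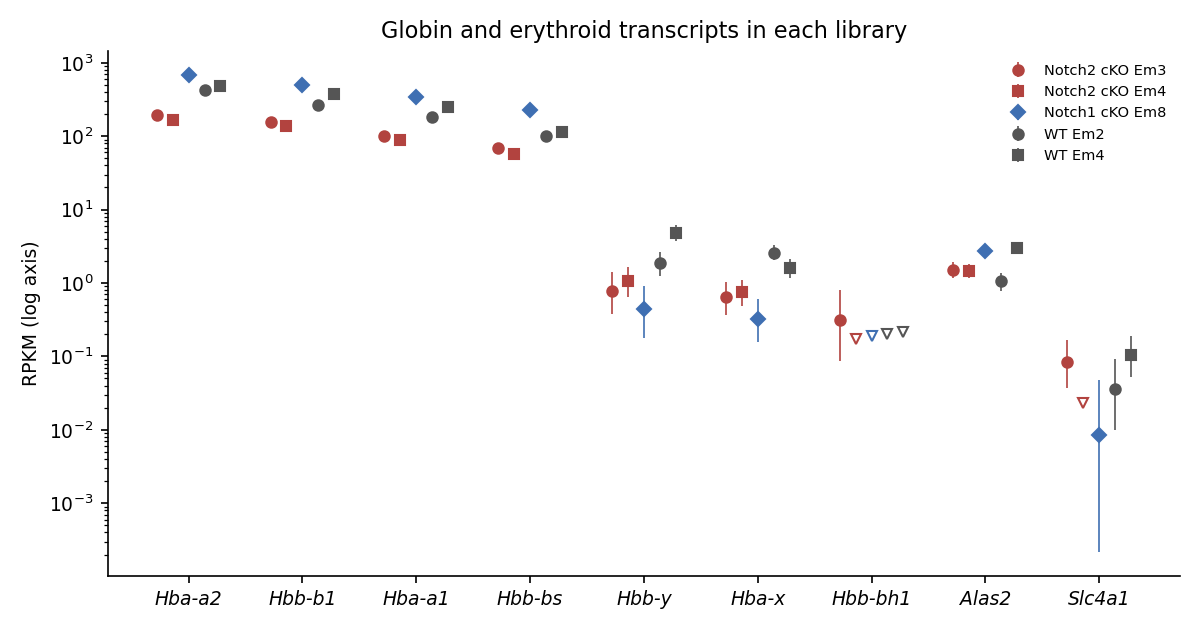
RPKM of each globin and erythroid gene (log axis) in the 5 libraries, with exact 95% Poisson intervals that cover counting error only; open triangles mark the level that 3 reads would give where a gene had 0 reads. The adult globins lie between 56.3 and 676 RPKM, Notch1 cKO Em8 highest and the Notch2 cKO-labelled pair lowest, and Hba-x and Hbb-y lie below 5 RPKM with Notch1 cKO Em8 lowest.

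The embryonic globins were at a few RPKM or less and ran in another order. The zeta-globin gene Hba-x stood at 0.642 and 0.75 RPKM in the Notch2 cKO-labelled pair (16 and 26 reads), 0.326 RPKM in Notch1 cKO Em8 (10 reads), and 2.59 and 1.60 RPKM in WT Em2 and Em4 (76 and 44 reads). The epsilon-y gene Hbb-y stood at 0.779 and 1.06 RPKM in the Notch2 cKO-labelled pair (10 and 19 reads), 0.443 RPKM in Notch1 cKO Em8 (7 reads), and 1.85 and 4.81 RPKM in WT (28 and 68 reads). For both genes all knockout libraries were below both WT libraries, and Notch1 cKO Em8 was the lowest of the 5. Over all genes tested, 9.44% had both libraries labelled Notch2 cKO below both WT libraries, and 26.1% had Notch1 cKO Em8 below both. Hba-x and Hbb-y entered the test through their WT level, so nothing is read from this order. The WT libraries did not order Hba-x and Hbb-y alike: Em2 was the higher for Hba-x by 1.62-fold and Em4 for Hbb-y by 2.59-fold. Hbb-bh1, the other embryonic beta gene, had 4 reads (0.316 RPKM, exact 95% Poisson interval 0.0862 to 0.810) in the library labelled Notch2 cKO Em3 and 0 reads in each of the other 4, which allows up to 0.215 RPKM at 3 reads.

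The erythroid genes outside the globin clusters were low and did not separate the groups. Alas2 stood at 1.51 and 1.45 RPKM in the Notch2 cKO-labelled pair (62 and 83 reads), 2.75 RPKM in Notch1 cKO Em8 (139 reads), and 1.06 and 3.03 RPKM in WT Em2 and Em4 (51 and 137 reads). The WT pair differed by 2.87-fold and enclosed all 3 knockout libraries. Slc4a1 had 8 and 0 reads in the Notch2 cKO-labelled pair, 1 read in Notch1 cKO Em8, and 4 and 11 reads in WT, so no level could be compared at this depth. Adult globin RPKM was 297 and 269 times that of Alas2 in the Notch2 cKO-labelled pair, 553 times in Notch1 cKO Em8, and 831 and 364 times in WT.

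The make-up of the globin RNA was compared library by library, with no test, since 2 against 2 libraries allow no exact permutation p smaller than 0.333. Hba-x, Hbb-y and Hbb-bh1 together made up 0.386% and 0.462% of globin RPKM in the Notch2 cKO-labelled pair, 0.0505% in Notch1 cKO Em8, and 0.504% and 0.578% in WT. As shares of reads they were 0.549% and 0.678% in the Notch2 cKO-labelled pair (exact 95% Clopper-Pearson intervals 0.371 to 0.783% and 0.495 to 0.907%), 0.0750% in Notch1 cKO Em8 (0.0437 to 0.12%), and 0.829% and 0.756% in WT (0.678 to 1.0% and 0.623 to 0.909%). The interval of Notch1 cKO Em8, on 17 embryonic and 22653 adult reads, lay below those of the other 4 libraries. Both libraries of the Notch2 cKO-labelled pair were below both WT libraries, by RPKM and by reads, but their intervals overlapped those of WT and no test between the groups was made.

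Within each library, alpha-type globin RNA was set against beta-type globin RNA. The ratio of their RPKM was 1.90 and 1.85 in the Notch2 cKO-labelled pair, 2.05 in Notch1 cKO Em8, and 2.29 and 1.94 in WT, with Hbb-b1 as the one adult beta gene counted. Counting Hbb-bs as well gave 1.31 and 1.31 in the Notch2 cKO-labelled pair, 1.41 in Notch1 cKO Em8, and 1.66 and 1.49 in WT. So counted, the ratio was lowest in the Notch2 cKO-labelled pair and highest in WT, and this order was not tested. Hba-a2 exceeded Hba-a1 by 1.91-fold and 1.86-fold in the Notch2 cKO-labelled pair, 1.95-fold in Notch1 cKO Em8, and 2.40-fold and 1.90-fold in WT Em2 and Em4, so WT Em2 stood apart. Hbb-b1 exceeded Hbb-bs by 2.2-fold and 2.43-fold in the Notch2 cKO-labelled pair, 2.22-fold in Notch1 cKO Em8, and 2.63-fold and 3.32-fold in WT. These ratios carry the uncertainty of the near-identical copies given with the sequences.

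**Figure D2:**
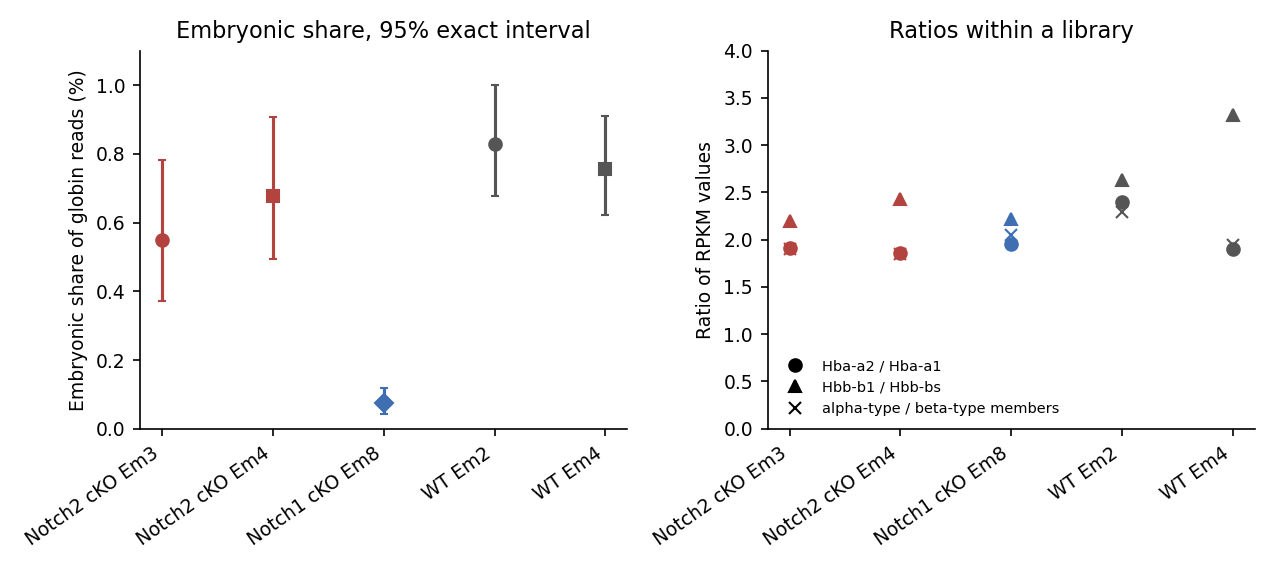
Left, share of globin reads from the embryonic genes (%) in each library, with exact 95% binomial intervals; right, ratios of RPKM within a library. The embryonic share of Notch1 cKO Em8, 0.0750%, lies below the other 4 intervals, and the alpha-type to beta-type ratio stays between 1.85 and 2.29.

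The next comparison set the Notch2 cKO-labelled pair against WT. On the log2(RPKM + 1) scale, Hba-a2 differed by −1.34 (SE 0.28), Hba-a1 by −1.16 (SE 0.27) and Hbb-b1 by −1.11 (SE 0.28). Group means of Hba-a2 were 179 ± 19.8 RPKM in the Notch2 cKO-labelled pair and 455 ± 33.7 RPKM in WT (SD, n = 2 each), a ratio of 0.394. The ratio was 0.440 for Hba-a1 and 0.456 for Hbb-b1. Hbb-bs, at −0.76 (SE 0.26), had a ratio of 0.591. The low genes Hbb-y (−1.09, SE 0.31) and Hba-x (−0.85, SE 0.29) had ratios of 0.277 and 0.332, and this scale understates the change of such low genes. Alas2 differed by −0.21 (SE 0.31), which is less than its SE.

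Only 6 of the 8 listed genes reached the mean of 1 RPKM needed for the test, and Hba-x and Hbb-y did so through WT, since both had knockout group means under 1 RPKM. These embryonic genes therefore had to be higher in WT to be tested, and their counts support nothing. In limma across all genes, 3 of the 6 were called lower in the Notch2 cKO-labelled pair at an adjusted p under 0.05 (Hba-a1, Hba-a2 and Hbb-b1), where 0.182% of all 11543 genes tested were. Both libraries were below both WT libraries for 5 of the 6, against 9.44% of all genes. Since these genes were chosen on this comparison, nothing is read from either count. All 3 calls were lost whichever library labelled Notch2 cKO was left out, while the differences stayed at −1.45 (Hba-a2), −1.25 (Hba-a1) and −1.20 (Hbb-b1) without Em3 and at −1.23, −1.07 and −1.02 without Em4. Only Hba-a2 was called without WT Em4. No filter on low values, limma voom on recovered reads and removal of the trend with gene length each ended all 3 calls as well. The differences were −1.34, −1.16 and −1.11 with no filter and −1.35, −1.17 and −1.12 with voom for the same genes. Under median-of-ratios scaling the count was again 3 but the genes were not the same: Hbb-b1 was lost and Hbb-y was called. With the length trend removed, the differences were −0.91 for Hba-a2, −0.73 for Hba-a1 and −0.71 for Hbb-b1.

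The Notch1 cKO comparison rests on a single knockout library, whose spread is taken to equal that of the other groups, and on the same WT libraries as the Notch2 comparison. Adult globins were on the high side and embryonic globins on the low side, and no member passed in limma after Benjamini-Hochberg adjustment. Hba-a1 was 0.70 higher on the log2(RPKM + 1) scale (SE 0.33, adjusted p = 1 in limma), Hbb-b1 0.66 higher (SE 0.34, adjusted p = 1) and Hba-a2 0.57 higher (SE 0.35, adjusted p = 1). The ratios of RPKM to the WT mean were 1.61, 1.56 and 1.49 for the same genes. Hbb-bs differed by 1.06 (SE 0.32, adjusted p = 0.418 in limma), a ratio of 2.10. For the embryonic genes, Hbb-y differed by −1.50 (SE 0.38) and Hba-x by −1.21 (SE 0.36), ratios of 0.133 and 0.155, given with no p because both were tested only through their WT level. Alas2 differed by 0.38 (SE 0.38, adjusted p = 1 in limma).

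Of the 6 members tested, 0 were called in either direction, where limma called 0.0693% of all genes. Unadjusted p-values were under 0.05 for 3 of the 6 with limma (213 of all 11543 genes) and for 2 with limma voom on recovered reads (168 of 11537), which also called 0 of the 6 after adjustment. With limma these were Hba-a1 and the embryonic globins Hba-x and Hbb-y. The embryonic globins entered the test only through their WT level, and the members were chosen with RPKM values known. Nothing is therefore read from these counts. Notch1 cKO Em8 was above both WT libraries for 3 of the 6, the adult globins, against 24.3% of all genes. It was below both for 2 of the 6, the embryonic globins, against 26.1%, and nothing is read from this for the same reason. The combination seen for the 3 adult globins, with Notch1 cKO above and both libraries labelled Notch2 cKO below both WT libraries, was met by 2.35% of all genes. Hba-a1 and Hba-a2 are not separate observations here, since the division of their reads is uncertain. Under median-of-ratios scaling, the 1 member called was Hbb-y, which rests on 7 reads in Notch1 cKO Em8 and on its WT level for entering the test.

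**Figure D3:**
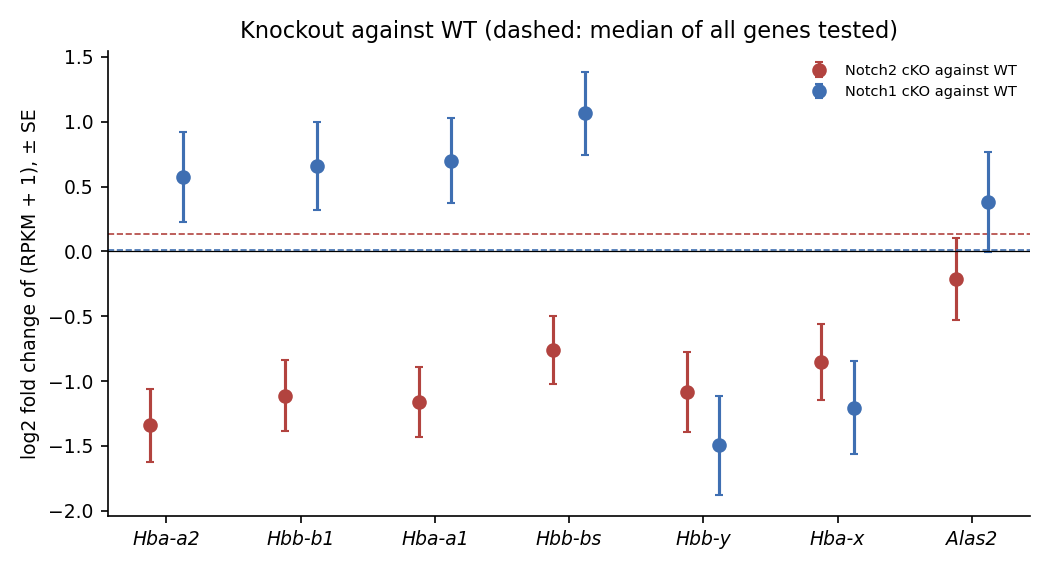
Difference from WT on the log2(RPKM + 1) scale (points, with bars for ± 1 SE from limma) for the Notch2 cKO-labelled pair and for the lone Notch1 cKO library; dashed lines give the median of all genes tested, 0.14 and 0.01. The 4 adult globins lie below 0 for the Notch2 label and above 0 for Notch1 cKO, while Hbb-y and Hba-x lie below 0 in both.

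The column names carry digits of unstated meaning, and values were also read within libraries that share them. The library labelled Notch2 cKO Em4 and WT Em4 share 1 set of digits, and between them Hba-a2 had a ratio of 0.346, Hbb-b1 of 0.367, Hba-a1 of 0.353, Hba-x of 0.468 and Hbb-y of 0.222. The library labelled Notch2 cKO Em3 and Notch1 cKO Em8 share another set, and between them the ratios were 0.286 for Hba-a2, 0.309 for Hbb-b1 and 0.291 for Hba-a1, but 1.97 for Hba-x and 1.76 for Hbb-y. Alas2 had ratios of 0.48 in the first set and 0.549 in the second. The adult globins and Alas2 were thus lower under the Notch2 label within both sets, although for Alas2 the unshared WT Em2 was lower still. No WT library shares digits with Notch1 cKO Em8, so that comparison cannot be told apart from the digits.

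Gene length moved with the Notch2 comparison. The adult globins and Hbb-y are short, at 559 bases for Hba-a1, 563 for Hba-a2, 626 for Hbb-b1 and 619 for Hbb-y, against a median of 2620 bases over the genes tested. Between the Notch2 cKO-labelled pair and WT, the 1155 shortest genes, 24 to 874 bases long, had a median difference of −0.29, while genes of 3109 to 3726 bases had 0.27 and all genes had 0.14, on the log2(RPKM + 1) scale. Cytosolic ribosomal protein genes, whose products build the ribosome and whose median length was 681.5 bases, had a median of −0.55, with 72 of 76 below 0. Their median level was 221 and 186 RPKM in the Notch2 cKO-labelled pair, and 394 and 246 RPKM in WT. The adult globins were thus further below 0 than the median of their length class, and the part of length in their difference was not tested beyond the trend removal above. In the Notch1 comparison the 1155 shortest genes had a median of 0.06 and ribosomal protein genes 0.05, with 26 of 76 below 0.

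**Figure D4:**
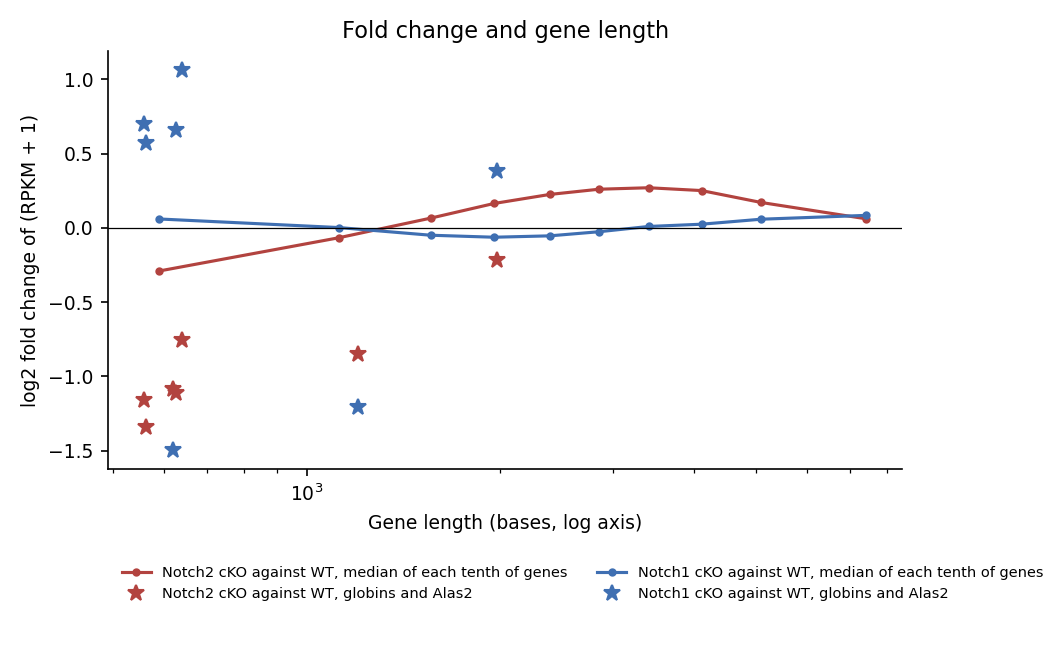
Median difference from WT on the log2(RPKM + 1) scale in each of 10 equal classes of genes by length (lines, at the median length of the class, log axis) and the globins with Alas2 (stars), for the Notch2 cKO-labelled pair and for Notch1 cKO. The shortest class lies at −0.29 for the Notch2 label and the globins of that length lie between −0.76 and −1.34.

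Other red-cell genes were listed to see what else of the lineage was present, and the lists were drawn up with earlier values of these libraries known. The globin genes of minor or unsettled role were at the edge of detection: Hbb-bh2 had 3 reads in the library labelled Notch2 cKO Em3, 1 in Notch1 cKO Em8 and 0 in the other 3, and Hbq1a and Hbq1b had 1 and 2 reads in the library labelled Notch2 cKO Em3 alone. That library also stood apart over all genes, with 12.7% of named genes at 0 reads against 24.5 to 31.7% in the other 4 and the fewest reads of the 5. Among 11 listed erythroid regulators, 9 had a mean under 1 RPKM. Klf1, an activator of adult beta-globin, stood at 0.283 and 0.181 RPKM in the Notch2 cKO-labelled pair, 0.383 RPKM in Notch1 cKO Em8, and 0.107 and 0.428 RPKM in WT. Gata1, the master regulator of the lineage, had 0 and 1 reads in the Notch2 cKO-labelled pair, 1 in Notch1 cKO Em8, and 0 in both WT libraries. The 2 regulators tested, Epor (the erythropoietin receptor) and Myb, were both above 0 in the Notch2 comparison and neither was called. Epor stood at 4.09 and 3.26 RPKM in the Notch2 cKO-labelled pair, 2.14 RPKM in Notch1 cKO Em8, and 1.59 and 1.94 RPKM in WT. Myb, at 4.06 and 2.64 RPKM in the Notch2 cKO-labelled pair, overlapped WT at 2.60 and 3.15 RPKM. Both were named after their values were seen, so nothing is read from their order.

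Of 19 genes of the red-cell membrane and its skeleton, 14 had a mean under 1 RPKM. The highest, the tetraspanin gene Tspan33, stood at 14.2 and 17.7 RPKM in the Notch2 cKO-labelled pair, 7.49 RPKM in Notch1 cKO Em8, and 8.99 and 13.3 RPKM in WT. The membrane list had a median of 0.20 over its 5 tested members in the Notch2 comparison and −0.16 in the Notch1 comparison, with 0 called in limma.

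Haem synthesis genes were present throughout and were not called in any direction in limma. All 12 were tested; 6 were above 0 and 6 below in the Notch2 comparison (median −0.00423 on the log2(RPKM + 1) scale), and 3 above and 9 below in the Notch1 comparison (median −0.11). Unadjusted p-values under 0.05 numbered 0 in both. Alas1, the form of the first-step enzyme used outside red cells, stood at 14.3 and 19.1 RPKM in the Notch2 cKO-labelled pair, 13.6 RPKM in Notch1 cKO Em8, and 13.8 and 17.6 RPKM in WT, well above Alas2 per length. The highest of the list, the porphyrin-transport gene Tmem14c, stood at 202 and 212 RPKM in the Notch2 cKO-labelled pair, 231 RPKM in Notch1 cKO Em8, and 252 and 203 RPKM in WT. Of the cytosolic and late erythroid genes, 12 of 15 were tested and 0 called, with a median of 0.10 and −0.03 in the Notch2 and Notch1 comparisons. The highest, the peroxide-removing enzyme gene Prdx2, stood at 611 and 658 RPKM in the Notch2 cKO-labelled pair, 698 RPKM in Notch1 cKO Em8, and 981 and 729 RPKM in WT. Car1, a carbonic anhydrase of red cells, had 5 and 4 reads in the Notch2 cKO-labelled pair and 0 in the other 3. So few reads allow no comparison of its level between the groups.

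**Figure D5:**
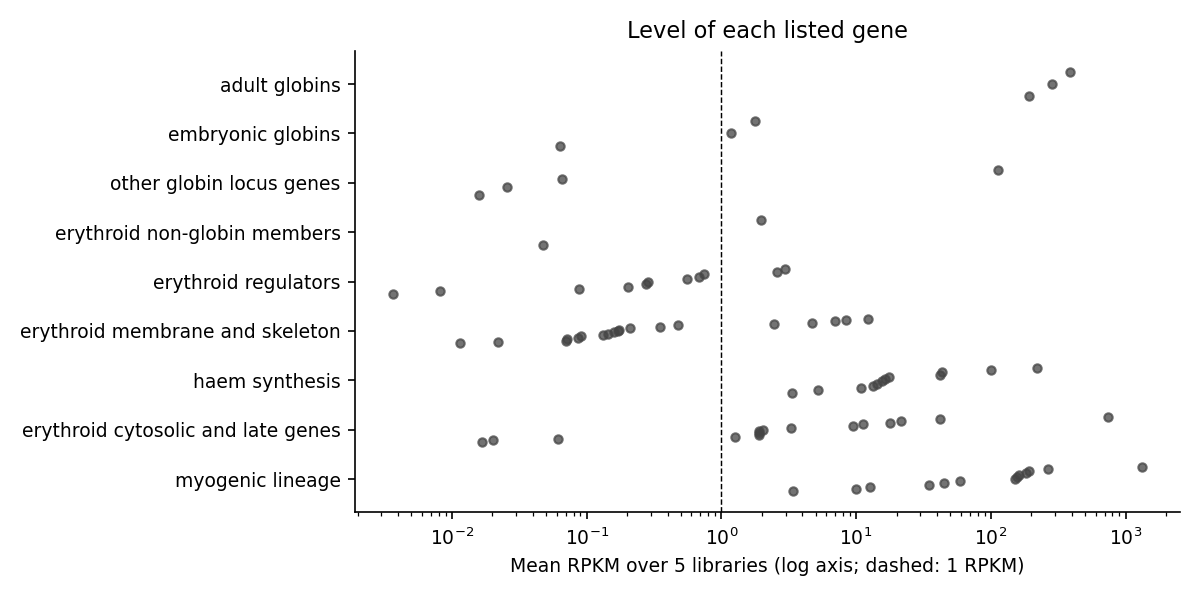
Mean RPKM over the 5 libraries (log axis, dashed line at 1 RPKM) of every listed gene, by list, 1 point a gene. The 3 adult globins lie between 194 and 389 RPKM while 9 of 11 erythroid regulators and 14 of 19 membrane genes lie below 1 RPKM; haem synthesis genes all lie above it.

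Markers of the other cells that blood or the sort could bring were read beside the globins. Leukocyte genes summed to 14.8 and 35.3 RPKM in the Notch2 cKO-labelled pair, 17.7 RPKM in Notch1 cKO Em8, and 15.1 and 22.0 RPKM in WT, with 11 of 15 at a mean under 1 RPKM and the highest, Cd68, averaging 8.06 RPKM. Endothelial genes summed to 23.7 and 28.1 RPKM in the Notch2 cKO-labelled pair, 41.1 RPKM in Notch1 cKO Em8, and 21.9 and 28.2 RPKM in WT, and were led by Egfl7. That gene stood at 17.2 and 19.5 RPKM in the Notch2 cKO-labelled pair, 33.9 RPKM in Notch1 cKO Em8, and 15.9 and 18.1 RPKM in WT. Of the 10 endothelial genes, 6 had a mean under 1 RPKM. Of the 4 tested, 2 were above 0 and 2 below in the Notch1 comparison, with a median of 0.005 on the log2(RPKM + 1) scale. The higher sum in Notch1 cKO Em8 thus rests on Egfl7 and not on the list as a whole. The part of the endothelial level in the globin result was not tested. Platelet genes summed to 10.1 and 13.6 RPKM in the Notch2 cKO-labelled pair, 12.2 RPKM in Notch1 cKO Em8, and 13.2 and 13.3 RPKM in WT, most of it Pf4. The myogenic list, by contrast, summed to 3030 and 3270 RPKM in the Notch2 cKO-labelled pair, 2020 RPKM in Notch1 cKO Em8, and 2170 and 2550 RPKM in WT, the opposite order of groups to the adult globins. Of its 13 genes, 11 were above 0 in the Notch2 comparison and 8 were below 0 in the Notch1 comparison, with 0 called in limma in either (2 and 0 at an unadjusted p under 0.05), and its part in the globin result was not tested. Over all genes tested, the median was 0.14 in the Notch2 comparison and 0.01 in the Notch1 comparison. In the Notch2 comparison 881 of all 11543 genes had an unadjusted p under 0.05 in limma. The counts of myogenic genes above or below 0 are therefore not read as a result. None of the leukocyte, endothelial and platelet lists was both lowest in the Notch2 cKO-labelled pair and highest in Notch1 cKO Em8. Most genes of each of these lists averaged under 1 RPKM, 8 of 9 for platelets. The part of such cells in the globin result was not tested.

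Mast cell genes ran against the adult globins. They summed to 11.0 and 31.1 RPKM in the Notch2 cKO-labelled pair, 1.25 RPKM in Notch1 cKO Em8, and 3.38 and 8.99 RPKM in WT. Of 5 listed, 3 were tested, and 2 of them, the protease genes Tpsb2 and Cpa3, were called higher in the Notch2 cKO-labelled pair in limma. Over all genes tested, 41 of 11543 were called higher. With no filter and with limma voom on recovered reads 0 genes were called higher, so neither call held there. Cpa3 stood at 2.62 and 6.995 RPKM in the Notch2 cKO-labelled pair, 0.189 RPKM in Notch1 cKO Em8, and 1.18 and 1.32 RPKM in WT. Their part in the globin result was not tested.

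The genes whose profile over the 5 libraries lay closest to the adult globins were found by distance between log2(RPKM + 1) values, each gene centred on its own mean, among 5452 genes averaging 10 RPKM or more. Hbb-bs was the closest at a distance of 0.512, where the median gene lay at 1.82 and a gene with the same value in every library would lie at 1.67. The division of reads between Hbb-bs and Hbb-b1 is uncertain, so its closeness is not a separate observation. Next came Rny3, a small non-coding Y RNA, at 0.545, with 27.2 and 19.6 RPKM in the Notch2 cKO-labelled pair, 58.1 RPKM in Notch1 cKO Em8, and 47.0 and 48.1 RPKM in WT. Ntn5 followed at 0.653, mt-Rnr2 (the mitochondrial large ribosomal RNA) at 0.654, the linker histone gene H1f5 at 0.712 and Rn18s (cytoplasmic ribosomal RNA) at 0.751. The other 4 of the closest 10 were Rdm1, Ifi27, Capns1 and H2az2, at 0.757 to 0.794.

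The stretch before the start of a globin gene is shown because the adult genes had like profiles over the libraries while the embryonic genes ran otherwise. RefSeq (GRCm38.p6) promoter entries matched 5 of the 9 members. The 200 bases before the RefSeq start are printed for an adult alpha, an adult beta and an embryonic beta gene, with capitals marking the motifs CCACACCC, CCAAT and GATAA on either strand, which do not overlap each other.
Hba-a2, chr11:32296292-32296491, + strand: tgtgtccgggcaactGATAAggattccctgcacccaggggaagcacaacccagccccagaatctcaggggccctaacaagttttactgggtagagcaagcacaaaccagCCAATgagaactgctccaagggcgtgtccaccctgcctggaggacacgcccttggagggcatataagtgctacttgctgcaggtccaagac
Hbb-bs, chr7:103827929-103828128, − strand: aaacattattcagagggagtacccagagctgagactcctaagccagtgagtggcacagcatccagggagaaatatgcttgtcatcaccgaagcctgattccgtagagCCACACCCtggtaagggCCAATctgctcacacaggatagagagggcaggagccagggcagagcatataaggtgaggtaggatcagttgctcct
Hbb-y, chr7:103853208-103853407, − strand: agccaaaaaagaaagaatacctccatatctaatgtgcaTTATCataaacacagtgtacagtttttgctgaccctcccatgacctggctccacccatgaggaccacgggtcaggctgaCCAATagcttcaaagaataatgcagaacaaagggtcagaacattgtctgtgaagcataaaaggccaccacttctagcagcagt
The motif CCACACCC, the kind bound by Klf1, began 93 bases before the start of Hbb-bs and occurred in 2.72% of 32851 promoters. CCAAT began 91, 88, 76 and 83 bases before the starts of Hba-a2, Hba-a1, Hbb-bs and Hbb-y, and occurred in 29.3% of promoters. GATAA, the kind bound by Gata1, occurred in 18.1% of promoters, and was found for Hba-a1, Hba-a2, Hba-x, Hbb-y and Alas2 but not in the window of Hbb-bs. The GENCODE genes of Hbb-bs and Hba-a1 begin before these RefSeq starts. Their CCAAT motifs and the CCACACCC of Hbb-bs therefore lie inside the GENCODE genes. These matches describe the letters of the windows and no binding was measured.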

How the data were processed

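Total RNA of sorted cells was made into SMART-Seq v4 low-input libraries and read as paired ends, per the labels' protocols. The authors deposited RPKM values for 27179 rows and 5 libraries. Per the submitters' processing notes, bcl2fastq 2.20.0 and the mm10 build were used; no source used here names the aligner, counting tool or annotation. The 1306 rows without a gene name, 2.19 to 3.07% of summed RPKM, were left out. Column names give the group but no replicate number.

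Whole reads were recovered by finding, for each library, the total that made gene lengths whole numbers of bases, which held for 97.4% of 8518 genes within 0.02 bases. Recovered reads summed to 99.2 to 99.3% of each total. Intervals and limits at 3 reads cover counting error only.

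Genes were tested with limma 3.58.1 (R 4.3.3; lmFit and trended eBayes) on log2(RPKM + 1), 1 mean per group, all 5 libraries, 11543 genes averaging 1 RPKM or more, two-sided, Benjamini-Hochberg at 0.05; 2 residual degrees of freedom, prior 103.8. It was tested on simulated data. P-values and SEs measure only the spread between these libraries. With such a prior, they rest mostly on the spread pooled over genes and little on each gene's own. Members and lists were chosen with earlier results of these data known, so the Notch2 comparison is given with no p. The genes named are all members, the highest gene and any called gene of each other list, Klf1, Gata1, Car1, the other globin genes, and the 10 closest profiles; Alas1, Epor and Myb were named after their values were seen. Some genes that this rule names are not reported here. The alternatives were another pseudocount, no filter, median-of-ratios scaling, limma voom on recovered reads, removal of a length trend, and leaving out each library.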

Additional observations from a re-analysis of the deposited data

Results flagged for a closer look

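The adult globins stood on opposite sides of WT in the knockouts. Every library labelled Notch2 cKO was below both WT libraries while the Notch1 cKO library was above both, for Hba-a2, Hba-a1, Hbb-b1 and Hbb-bs. Of all genes tested, 2.35% met this combination, 9.44% its Notch2 side and 24.3% its Notch1 side. The log2 difference from WT in the Notch2 cKO-labelled pair minus that in Notch1 cKO was −1.91 for Hba-a2, −1.86 for Hba-a1, −1.77 for Hbb-b1 and −1.82 for Hbb-bs. The difference itself was not tested, the Notch1 side is 1 library, both sides share the WT libraries, and these genes were chosen with such values known.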

How the results depend on the processing

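The count of members called lower in the Notch2 cKO-labelled pair was 3, and 0 with no filter on low values, with limma voom on recovered reads and with the length trend removed. Over all genes these 3 settings called 0, 1 and 0 lower. Leaving out 1 library in turn gave 0 to 3. Under median-of-ratios scaling it was 3 with Hbb-y in place of Hbb-b1. The count called in Notch1 cKO was 0, and 1 (Hbb-y) under median-of-ratios scaling. Over all genes, calls lower in the Notch2 cKO-labelled pair numbered 21, and between 0 and 232 over the alternatives, the highest without WT Em4; median-of-ratios scaling gave 41 higher and 40 lower where the values as deposited gave 41 and 21, and put the median of all genes at −0.04 in place of 0.14. Alas2 changed sign, to 0.272 for the Notch2 label without WT Em4 and to −0.104 for Notch1 cKO without WT Em2, within leave-one-out ranges of −0.699 to 0.272 and −0.104 to 0.867; the cause was not tested. Every other member tested kept its sign in both comparisons under each alternative that gave a value; Hba-x fell under the filter without WT Em2. At low levels the size moved: with a pseudocount of 0.1 and with voom, Hba-x under the Notch2 label was −1.43 and −1.53, and Hbb-y −1.61 and −1.65. The mean embryonic share was 0.424% in the Notch2 cKO-labelled pair and 0.541% in WT by RPKM, 0.614% and 0.792% by reads, and 0.369% and 0.488% with Hbb-bs. The mean alpha-type to beta-type ratio of 1.87 in the Notch2 cKO-labelled pair was 1.68 by reads; with Hbb-bs it was 1.31 in this pair, 1.41 in Notch1 cKO and 1.58 in WT. No paired analysis was possible because the columns carry no replicate numbers; the digits they carry join only 1 library labelled Notch2 cKO to 1 WT library. Under 100 reads, as for the embryonic globins and Slc4a1, counting error limits each value.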
